A study of Drosophila melanogaster with 6 samples.

Results

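The subunits of the oxidative phosphorylation machinery were followed in eye-antennal imaginal discs of Drosophila melanogaster. The members were the probe sets with a single annotated gene whose symbol begins with ND-, Sdh, UQCR-, COX and a digit, Cyt-c or ATPsyn, with 1 probe set per gene, the brightest over all arrays. This gave 75 of the 11982 genes with such a probe set. They were 27 of complex I, 3 of complex II with 1 assembly factor of that complex, 5 of complex III, 7 of complex IV and 10 of complex V. The other 22 were paralogues whose symbols end in L or in L and a digit. The rule reads gene symbols and the mean level over both genotypes, and it was written with earlier results of these data known. The RefSeq table of the Release 6 assembly holds 95 genes whose symbols meet the rule, and 20 of them, SdhA, ATPsynG and the carrier gene Cyt-c-p among them, were not analysed here.

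Oxidative phosphorylation takes place in the inner mitochondrial membrane. Complexes I and II take electrons from NADH and succinate, complex III passes them to cytochrome c, and complex IV hands them to oxygen, while complexes I, III and IV pump protons that complex V uses to make ATP. Apart from a small set of proteins encoded by the mitochondrial genome, the subunits come from nuclear genes, and proliferating disc cells are known to run this pathway beside glycolysis. Several of the L paralogues in Drosophila are known for expression in the testis.

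Total RNA came from whole discs, the sheets of larval cells from which the eye, antenna and head cuticle develop, of wandering L3 larvae kept at 25 °C. All larvae were labelled w1118 and carried GS(2)88A8, an insertion with Gal4-responsive sites, and UAS-Dl, which encodes Delta, a ligand of Notch. The tumour group was ey-Gal4 GS(2)88A8 UAS-Dl/+, whose driver is active in the developing eye, and the control group, GS(2)88A8 UAS-Dl/+, lacked that driver. Each group had 3 arrays, each from a separate pool of discs, the driver acts in a part of the cells assayed, and no group carried the driver alone, so its own effect and that of the genes it drives cannot be told apart.

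The labelled tissue was checked on 5 eye field markers, ey, toy, so, eya and dac, which all lay above 8 log2 on every array. The replicate 1 arrays differed from the other 4. Their 18S rRNA control probe sets averaged 12.5 log2 in tumour and 10.3 in control, against 5.50 to 7.19 elsewhere. Their actin control signal was higher at the 3' than at the 5' end by 1.03 and 0.858, against 0.350 to 0.591 elsewhere. The same difference did not set both of them apart for the eIF4a control, at 1.71 and 1.75 against 1.33 to 1.73, or the Gapdh control, at 0.592 and 0.437 against 0.330 to 0.475. Arrays of the same number deviated together, so beside the unpaired fit a paired fit was made, in which replicate number was a block.

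Of the 75 genes, 52 were tested, which required a log2 value of at least 4 on at least 3 arrays. All 52 were at least at 4 on all 6 arrays, from 4.27 for UQCR-11 to 14.5 for ATPsynbeta, so none was tested through a single genotype. The 23 genes that were not tested comprised 21 of the 22 paralogues, none of which exceeded 2.59 on any array where the floor of the scale is 2.2, and the complex I genes ND-B8 (at most 2.29) and ND-B12 (3.21 on every array). For 17 of these 23 the 6 arrays differed by less than 0.01, and no direction can be read from any of them.

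In tumour discs 49 of the 52 tested genes, 94.2%, had a lower mean than in control discs, where 38.5% of all 6447 tested genes did. The differences were small: the median was -0.14 log2, a level of 90.9% of control, beside a median of 0.05 over all tested genes, and 1 of the 52 differences, a rise, exceeded 0.5 in size. No member was called by limma in the unpaired fit, where the smallest adjusted p was 0.19 and 0.512% of all tested genes were called; 9 had an unadjusted p under 0.05, or 17.3% against 8.73% of all tested genes. In the paired fit 5 members were called lower, 4 of them in complex IV, and 1 was called higher. The 5 are 9.62% of the tested members, against 5.38% of all tested genes called lower in that fit and 4.06% called higher, so the share called is close to the background. In that fit 22 members, 42.3%, had an unadjusted p under 0.05, against 30% of all tested genes. Without pair 3 no member was called (smallest adjusted p = 0.24, 14 with an unadjusted p under 0.05), as was none of all 7962 tested probe sets. Without pair 2 the called members were COX7C and ATPsynepsilonL, among 484 probe sets in all. With array weights, whose estimation did not fully converge, 15 members were called lower, where 11.4% of all tested genes were.

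Direction was shared by more members than the calls. Tumour was below control in all 3 same-number pairs for 41 of 52 members, 78.8%, against 20.6% of all tested genes, and above control in all 3 pairs for 3 members, against 35.7%. All 3 tumour values lay below all 3 control values for 19 members, 36.5%, against 7.2% of all tested genes, and above them for 1 member, against 8.72%. The members are bright probe sets. Among genes with a mean of at least 10, which hold 46 of the members, 25.7% of all 2020 tested genes and 84.8% of the members were lower in all 3 pairs. In that same range the share without overlap was 8.22% for all genes and 39.1% for the members. In bulk discs, fewer cells with a high content of these transcripts and less of them per cell cannot be told apart.

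**Figure D1:**
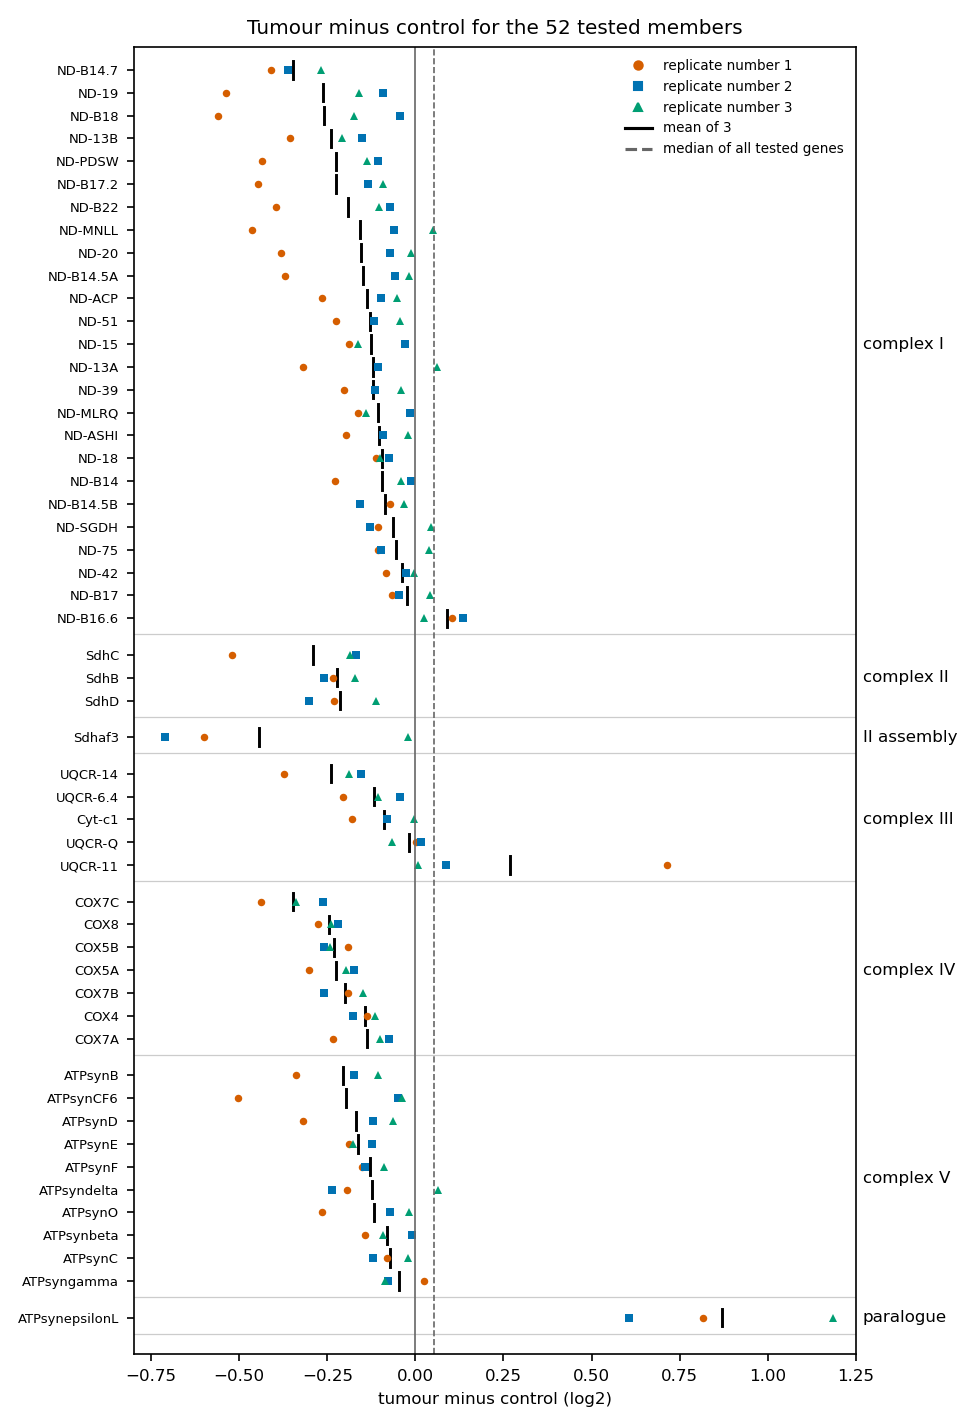
Tumour minus control on the log2 scale (x axis) for each of the 52 tested members (rows), grouped by complex. Circles, squares and triangles stand for replicate numbers 1, 2 and 3, black ticks for the mean of the 3, and the dashed line for the median of all tested genes, 0.05. In complex IV all 21 points lie left of zero, while ATPsynepsilonL, the paralogue, lies right of it by 0.61 to 1.19.

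The size of the difference depended on the pair. The median over the 52 members was -0.23 in pair 1, -0.10 in pair 2 and -0.09 in pair 3, while that of all tested genes was 0.07, 0.02 and 0.06. Pair 1, whose arrays stood apart in rRNA and in the actin control, gave the lowest of the 3 values for 37 members, and tumour replicate 1 was the lowest of the 6 arrays for 41 members, 78.8%, against 32.7% of all tested genes. Whether the RNA quality of those arrays had a part in the size was not tested. Without tumour replicate 1 the median was -0.049, beside 0.15 over all tested probe sets, and 38 members were lower by mean. The medians of complexes I, II, III, IV and V were then -0.045, -0.18, -0.034, -0.20 and 0.011. In pairs 2 and 3 taken alone, 42 members, 80.8%, were lower in both, against 28.0% of all tested genes. An unpaired fit of those 4 arrays called 4 members lower, all of them among the 5 of the paired fit, where 4.19% of all tested genes were called lower.

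Complex IV, cytochrome c oxidase, is the terminal enzyme of the chain, and its nuclear subunits surround a core made in the mitochondrion. All 7 tested subunits were below control in all 3 pairs, against 20.6% of all tested genes. For 6 of 7 the genotypes did not overlap, 85.7% against 7.2% of all tested genes. The paired fit called 4 of 7 lower, 57.1% against the background of 5.38%, and the median of the complex was -0.23, with -0.23, -0.22 and -0.20 in pairs 1, 2 and 3. Among the 5 complexes it had the tightest pairs, with a median SD of 0.056 between the pair differences of a gene, against 0.089 to 0.096 in the other 4.

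COX7C, a small membrane subunit, measured 12.43, 12.70 and 12.69 log2 in tumour replicates 1, 2 and 3 and 12.87, 12.97 and 13.03 in the controls. Every tumour value was below every control value. The paired fit called it lower by a difference of -0.35 log2 (SE 0.048, adjusted p = 0.022), 78.7% of control, and the unpaired fit did not (adjusted p = 0.36). Tumour minus control was -0.44, -0.26 and -0.34 in the 3 pairs.

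COX8, another small membrane subunit, stood at 12.90, 13.03 and 13.06 in tumour and 13.17, 13.25 and 13.30 in control. The groups did not overlap, and replicate 1 was the lowest array in each. It fell by 0.25 with pairing (SE 0.037, adjusted p = 0.026; adjusted p = 0.47 unpaired), and the pairs gave -0.28, -0.22 and -0.24.

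COX5B, which holds a zinc ion on the matrix side of the enzyme, had 11.86, 11.96 and 11.97 in tumour and 12.05, 12.22 and 12.21 in control. It fell by 0.23 in the paired fit (SE 0.041, adjusted p = 0.037; adjusted p = 0.49 unpaired), without overlap. COX5A, its neighbour in the matrix part, had 12.34, 12.59 and 12.62 in tumour and 12.64, 12.76 and 12.82 in control. It fell by 0.23 as well (SE 0.045, adjusted p = 0.047 paired, 0.71 unpaired), and its lowest control value exceeded its highest tumour value by little. COX5A was not called when pairs 2 and 3 were fitted alone without pairing (adjusted p = 0.067). In the paired fit without pair 2, COX8, COX5B and COX5A were not called (adjusted p = 0.067, 0.11 and 0.088).

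The other 3 subunits lay on the same side with no call. COX7B was at -0.20 on its brightest probe set (paired adjusted p = 0.051) and at -0.26 on a second one (paired adjusted p = 0.054), while another lay at the floor on every array. COX4, a subunit with a regulatory nucleotide site in mammals, was at -0.14 (paired adjusted p = 0.086). COX7A, the closest of the 7 to zero, was at -0.14 (paired adjusted p = 0.14; 95% interval -0.26 to -0.016), and it was the subunit whose groups overlapped.

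**Figure D2:**
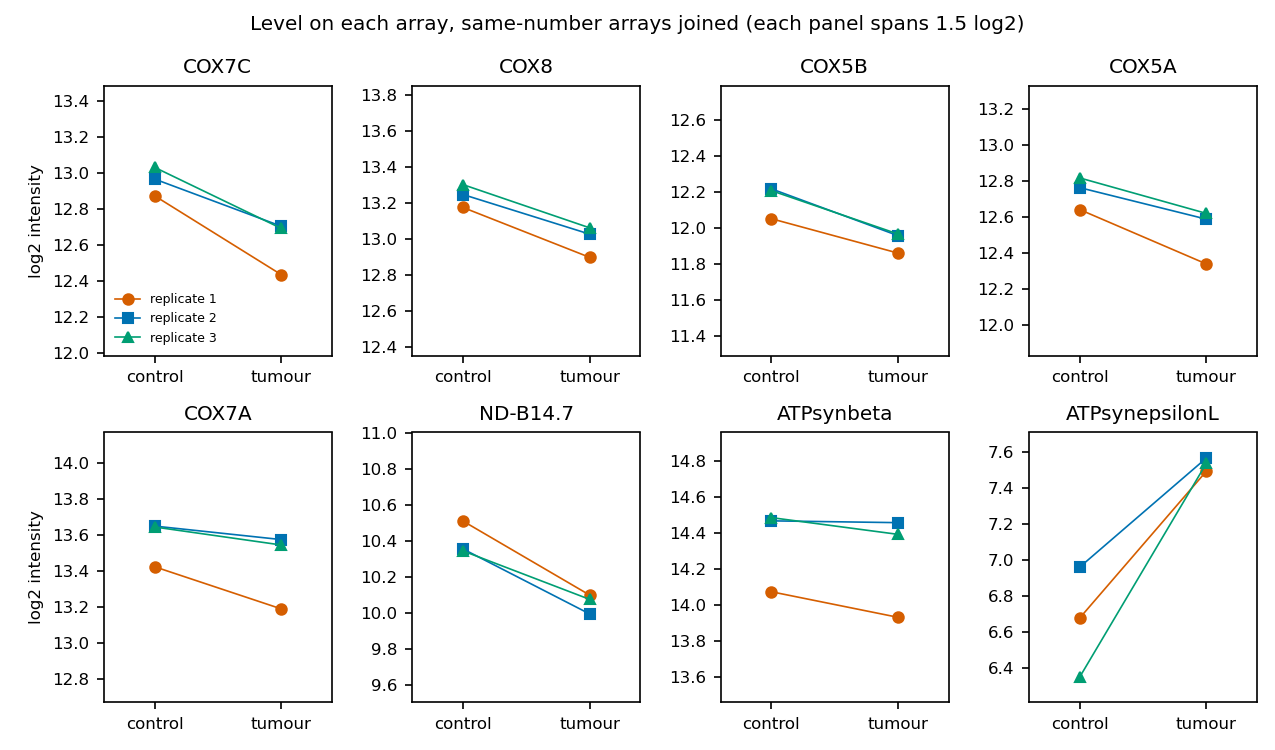
Log2 intensity (y axis) of 8 members on each array, with control and tumour of the same replicate number joined by a line; every panel spans the same 1.5 log2. The 4 called complex IV subunits and ND-B14.7 are lower in tumour without overlap, COX7A and ATPsynbeta overlap, and ATPsynepsilonL is higher on all 3 tumour arrays.

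Complex II, succinate dehydrogenase, joins the citrate cycle to the chain and is a small complex, of which SdhB, SdhC and SdhD were measured. All 3 were below control in all 3 pairs, with a median of -0.22, and none passed the adjusted threshold in either fit. Over all tested genes 20.6% were lower in all 3 pairs and 7.2% were lower without overlap. SdhC, a membrane anchor, had 11.15, 11.51 and 11.47 in tumour against 11.67, 11.68 and 11.66 in control, without overlap, at -0.29 (SE 0.083, paired adjusted p = 0.099). SdhD, the other anchor, had 10.34, 10.27 and 10.40 against 10.57, 10.57 and 10.51, again without overlap, at -0.22 (SE 0.059, paired adjusted p = 0.091). SdhB, the iron-sulphur subunit, had 10.01, 10.36 and 10.43 against 10.24, 10.62 and 10.60, at -0.22 (SE 0.051, paired adjusted p = 0.065). For SdhB the replicate 1 arrays were low in both genotypes, and the groups overlapped. The assembly factor gene Sdhaf3 varied widely from pair to pair, at -0.60, -0.71 and -0.02 (paired adjusted p = 0.15).

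Complex I, the NADH dehydrogenase, is the largest of the complexes. Of 25 tested subunits 24 had a lower mean in tumour, 19 were lower in all 3 pairs, 9 did not overlap between genotypes and 1 was called in the paired fit. The 19 are 76%, against 20.6% of all tested genes, and the 9 are 36%, against 7.2%. The 1 call is 4%, below the 5.38% of all tested genes called lower in that fit. The median was -0.13, with -0.23, -0.09 and -0.04 in pairs 1, 2 and 3. ND-B14.7, an accessory membrane subunit, had 10.10, 9.996 and 10.08 in tumour and 10.51, 10.36 and 10.35 in control. It fell by 0.35 in the paired fit (SE 0.056, adjusted p = 0.031, and 0.25 unpaired), with all tumour values below all control values and no low replicate 1. In pairs 2 and 3 alone it was called without pairing (adjusted p = 0.047) but not with it (adjusted p = 0.062). It was not called in the paired fit without pair 2 either (adjusted p = 0.086). Its probe set is 1 of 10 among the tested members that the array's naming marks as able to detect related transcripts, so signal of a near copy cannot be told apart.

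Other complex I subunits were further from control in pair 1 than in the rest. ND-19 had pair differences of -0.54, -0.09 and -0.16, ND-B18 had -0.56, -0.04 and -0.17, and ND-B17.2 had -0.45, -0.13 and -0.09. None of them was called (paired adjusted p = 0.16, 0.19 and 0.16). The 3 measured core subunits, which carry the cofactors along the electron path, were at -0.16 for ND-20, -0.13 for ND-51 and -0.06 for ND-75. The 22 accessory subunits had a median of -0.12 and ran from -0.35 to 0.09, on both sides of the core values, and the 2 kinds were not tested against each other. ND-B16.6, the subunit also known in mammals as a cell death regulator, was the exception at 0.09 (95% interval -0.033 to 0.21, paired adjusted p = 0.27), above control in all 3 pairs. ND-B17 (-0.02) and ND-42 (-0.04) were closest to zero.

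Complex III, which moves electrons from ubiquinol to cytochrome c, had 5 tested genes. UQCR-14, a matrix-side subunit, had 12.43, 12.63 and 12.67 in tumour and 12.80, 12.79 and 12.86 in control, without overlap, at -0.24 (SE 0.056, paired adjusted p = 0.069). UQCR-6.4 was at -0.12 (paired adjusted p = 0.18) and Cyt-c1, the haem-bearing subunit that docks cytochrome c, at -0.09 (paired adjusted p = 0.31), both lower in all 3 pairs. UQCR-Q was at -0.02, with pairs on both sides of zero. UQCR-11 was at 0.27 (paired adjusted p = 0.35), but its level was 4.27 to 5.44, near the floor, and the difference was 0.72 in pair 1, 0.09 in pair 2 and 0.01 in pair 3. Without tumour replicate 1 it was -0.10, and in pairs 2 and 3 alone it was 0.046. The median of the 5 was -0.09.

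Complex V, ATP synthase, was lower for 10 of 10 tested subunits by mean and for 8 of 10 in all 3 pairs, with no call in either fit. The 8 are 80%, against 20.6% of all tested genes. ATPsynE was the 1 subunit without overlap, which is 10%, near the 7.2% of all tested genes. The median was -0.13, with -0.19, -0.12 and -0.07 in the 3 pairs. By position in the enzyme, the 4 subunits of the peripheral stalk, ATPsynB, ATPsynCF6, ATPsynD and ATPsynO, had a median of -0.18 and ran from -0.21 to -0.12. The 3 of the membrane part, ATPsynC, ATPsynE and ATPsynF, had a median of -0.13. The 3 of the catalytic head and central stalk, ATPsynbeta, ATPsyngamma and ATPsyndelta, had a median of -0.08. These groups of 3 and 4 genes overlapped and were not tested against each other.

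ATPsynE, a membrane subunit that in yeast helps join the enzyme into dimers, had 12.85, 13.03 and 12.99 in tumour and 13.04, 13.15 and 13.17 in control, at -0.16 (SE 0.038, paired adjusted p = 0.065). Like that of ND-B14.7, the probe set of ATPsynE is marked by the array's naming as able to detect related transcripts. ATPsynB, the stalk's long subunit, had 12.40, 12.91 and 12.94 against 12.74, 13.08 and 13.05, at -0.21 (SE 0.057, paired adjusted p = 0.091). Its replicate 1 values were low in both genotypes and the groups overlapped. ATPsynbeta, which carries the catalytic sites, was at -0.08 (95% interval -0.19 to 0.024 in the paired fit) and its second probe set at 0.01. ATPsyngamma, the rotor, was at -0.05 (95% interval -0.15 to 0.060) and at -0.14 on its second probe set, and its pair differences of 0.02, -0.08 and -0.09 changed sign.

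The paralogue ATPsynepsilonL went the other way. Named for its likeness to the epsilon subunit of ATP synthase, it was the 1 paralogue of 22 that passed the filter on low values, with 7.49, 7.57 and 7.54 in tumour and 6.68, 6.96 and 6.35 in control. All tumour values lay above all control values, and the 3 tumour arrays differed by less than 0.1 while the controls spread over 0.6. It rose by 0.87 in the paired fit (SE 0.14, adjusted p = 0.030), to 1.83 times the control level, and was not called unpaired (adjusted p = 0.19) or in pairs 2 and 3 alone (adjusted p = 0.083). The gene of the epsilon subunit proper, sun, lay outside the symbol rule and was at -0.05 (paired adjusted p = 0.77), at a level of 5.19 to 5.29.

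**Figure D3:**
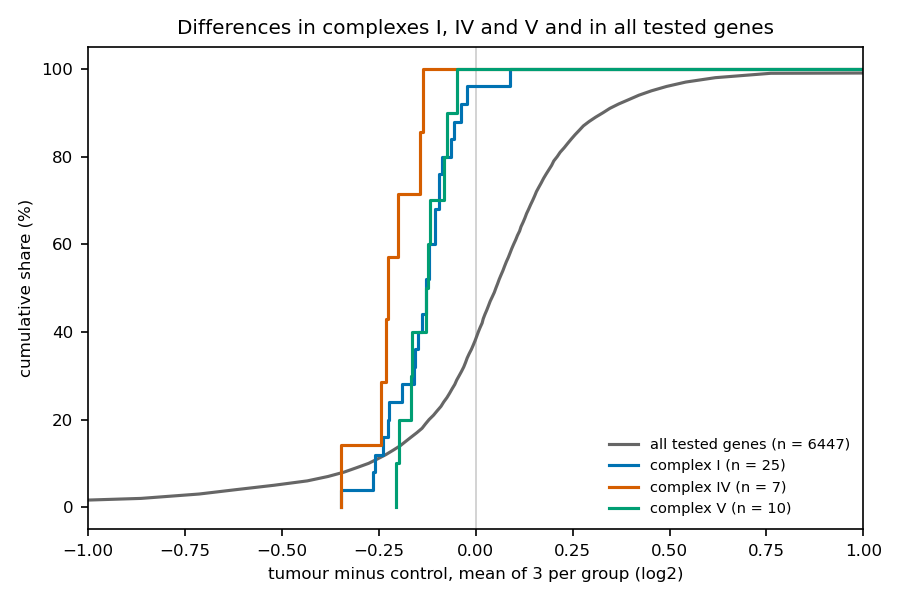
Cumulative share of genes (y axis, percent) against the mean tumour-minus-control difference (x axis, log2) for complexes I, IV and V and for all 6447 tested genes; the x axis is limited to 1 on either side. All 7 complex IV subunits and all 10 of complex V lie below zero, as do 24 of 25 in complex I, where the curve of all tested genes has reached 38.5%.

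Subunits whose symbols do not meet the rule were measured beside these. Of 6 such genes, RFeSP, ox, levy, cype, blw and sun, 5 were lower in all 3 pairs, 83.3% against 20.6% of all tested genes. The median of the 6 was -0.16. Among the 5 was sun, which was at -0.05 (paired adjusted p = 0.77) and nearly flat over the arrays at 5.19 to 5.29. The complex III subunit gene ox had 11.45, 11.54 and 11.58 in tumour and 11.85, 11.88 and 11.89 in control, without overlap. It fell by 0.35 in the paired fit (SE 0.044, adjusted p = 0.016). RFeSP, the Rieske iron-sulphur protein of complex III, was at -0.36 (paired adjusted p = 0.098) on its brightest probe set. A dimmer probe set of RFeSP read 6.65, 7.82 and 8.15 in tumour and 2.52, 2.52 and 2.51 in control, near the floor. It was called higher in both fits (adjusted p = 0.018 unpaired, 0.0047 paired), but with controls near the floor the size of the difference is not measured. Which transcripts the RFeSP probe sets detect was not analysed here. The complex IV subunit genes cype and levy were at -0.17 and -0.16 (paired adjusted p = 0.063 and 0.11). blw, the alpha subunit of the ATP synthase head, was at 0.00 (paired adjusted p = 0.96).

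Among neighbouring mitochondrial and energy genes, glycolytic genes and carriers were mostly lower too, and the other lists were mixed or had medians near zero. Beside the counts below, 20.6% of all tested genes were lower and 35.7% higher in all 3 pairs. The paired fit called 5.38% of all tested genes lower and 4.06% higher. The 8 assembly factors, Sdhaf3 included, had a median of 0.01, 4 lower and 4 higher, and none was called in either fit. Of 9 tested citrate cycle genes 5 were lower and 4 higher, with a median of -0.05, and Scsalpha1, a subunit of succinyl-CoA synthetase, was called lower in the paired fit at -0.22 (adjusted p = 0.047). Of 9 tested glycolytic genes 8 were lower, 6 of them in all 3 pairs, with a median of -0.11; Gapdh1 and Tpi were both called lower in the paired fit at -0.34 (adjusted p = 0.021 and 0.037). The 4 tested carriers had a median of -0.10 with no call, and the 7 regulators of mitochondrial genes, such as ewg and TFAM, had a median of 0.04 with no call. For the 69 tested mitochondrial ribosomal protein genes the median was -0.01, with 12 lower and 11 higher in all 3 pairs and 2 called higher in the paired fit. For 34 tested cytoplasmic ribosomal protein genes it was 0.06, with 2 lower and 25 higher in all 3 pairs and 1 called higher. No test of these lists against the subunits was made.

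**Figure D4:**
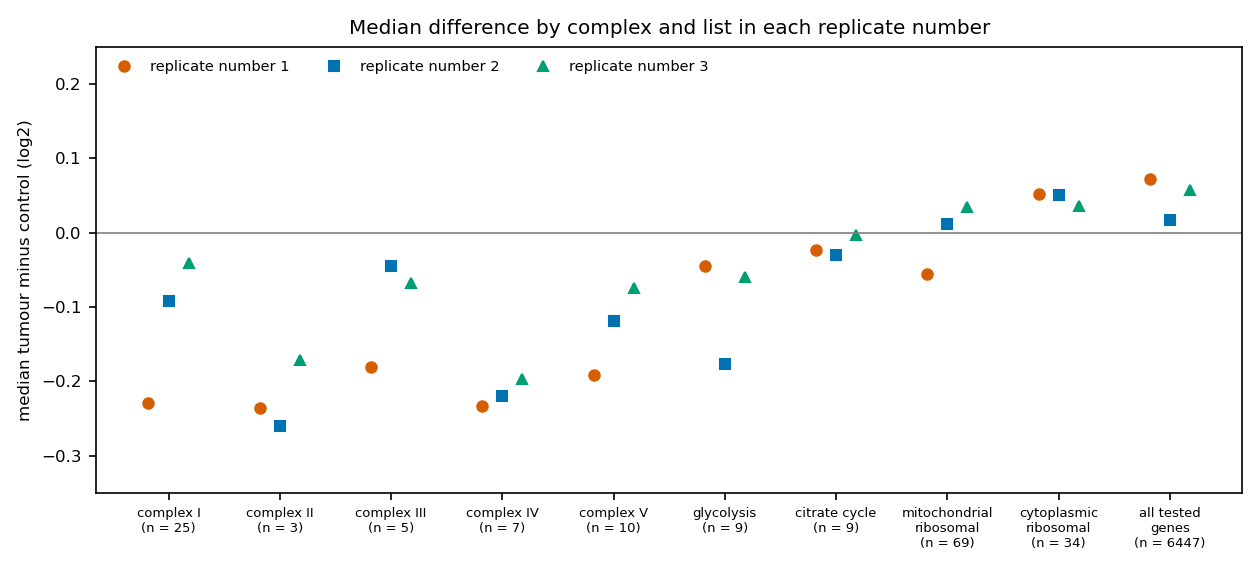
Median tumour-minus-control difference (y axis, log2) in each replicate number for complexes I to V, 4 other gene lists and all tested genes (x axis, number of genes in brackets). Complex IV lies between -0.23 and -0.20 in all 3 pairs, complex I runs from -0.23 to -0.04, and the 2 ribosomal lists lie between -0.06 and 0.05.

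Markers of other cells moved between the genotypes as well. For comparison, the paired fit called 5.38% of all tested genes lower and 4.06% higher. Of all tested genes, 38.5% were lower by mean, 20.6% lower in all 3 pairs and 35.7% higher in all 3. Of 9 tested muscle and myoblast markers, 9 were lower by mean, 6 were called lower in the paired fit, and the median was -0.52. In muscle, a tissue rich in mitochondria, these genes build the contractile fibres or mark their precursors. The linear intensities of all 10 on the array summed to 11270 to 13375 on the tumour arrays and 16425 to 18586 on the control arrays, with TpnC41C at the floor. Of 5 haemocyte markers 4 were lower by mean, 3 of them in all 3 pairs, and 1 was higher. PPO1 and PPO2 were called lower in the paired fit. Hml, srp and NimC1 were not called (paired adjusted p = 0.11, 0.35 and 0.90), and NimC1 was the 1 higher by mean, at 0.04. The sums of all 5 were 963 to 1608 in tumour and 2211 to 3135 in control, with none at the floor. The 2 glial markers had sums of 546 to 857 and 618 to 1071, with 1 called lower, and the 2 tracheal markers 8765 to 14974 and 8426 to 12998, with none called. The 3 fat body markers were not tested; their sum was 22.2 to 22.6 in tumour and 22.2 to 184 in control, the last in control replicate 3, where Lsp2 reached 6.51 against at most 3.11 on the other arrays. Of disc markers, all 5 eye field and all 4 photoreceptor and furrow genes were higher in all 3 pairs. The paired fit called 5 of 5 and 3 of 4 of them higher. Their sums were 22711 to 25479 in tumour against 13072 to 17723 in control and 5968 to 6467 against 4345 to 4449. The 3 antennal markers were all lower in all 3 pairs and 1 was called lower in the paired fit, with sums of 829 to 1157 against 1254 to 1560. The part of these shifts in the subunit differences was not tested.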

How the data were processed

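The authors deposited log2 intensities of 18952 probe sets from 6 one-colour Affymetrix Drosophila Genome 2.0 arrays (15 ug of cRNA each, per the labels' protocols). They were made with GCRMA, per the submitters' processing notes, a method that adjusts for background and scales arrays to each other before probes are combined. The log2 scale and the floor of 2.2 come from the values. Arrays have no read depth, and their number limits precision. GEO's platform annotation gave 1 gene for 13647 probe sets, several for 402 and none for 4720; 4 probe sets that pair a subunit with another gene were left out. Identifiers of 13544 matched the RefSeq table, used for names alone. The 183 control probe sets were set apart.

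Probe sets with log2 of at least 4 on at least 3 arrays (7962 probe sets, 6447 genes by their brightest probe set) were fitted with limma 3.58.1 in R 4.3.3 (lmFit, eBayes with trend, two-sided), adjusted by Benjamini-Hochberg over all of them, threshold 0.05. Standard errors and 95% intervals are limma's. The unpaired fit came first in the plan and the paired one, with replicate number as a block, was its alternative. Same-number arrays deviated together from their group means (correlations 0.794, 0.467 and 0.723 over tested probe sets), so the numbers were treated as pairs. This comes from the data, as the labels do not say what a number marks. Replicate 1 arrays correlated negatively with those of other numbers. Tumour replicate 2 correlated more with control replicate 3 (0.668), and tumour replicate 3 correlated with control replicate 2 at 0.473. The data thus do not establish which arrays of numbers 2 and 3 belong together. Paired calls and counts over pairs rest on the labelled numbers. Replicates are biological, per the labels, and unpaired p-values thus cover variation among pools of discs. The paired fit takes out what same-number arrays share, so its p-values cover only the spread of the pair differences.

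The members, lists, roles in the enzyme and tests were chosen with earlier results of these data known. Genes were named by rule: called members of each complex (or the 2 with the smallest paired p), its highest and lowest, and all Sdh and Cyt-c genes; further members are named to account for the rest. The fits were tested on simulated data, where they returned the sizes of changes on average but called none as small as most differences of the members. A few fixed sizes were simulated in a small share of probe sets, with no group difference in the rest. The simulation therefore cannot say whether differences of the members' size could be called in these data. Alternatives were other filters, normalizations, probe set summaries and array subsets.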

Additional observations from a re-analysis of the deposited data

How the results depend on the processing

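Against no called member in the unpaired fit, limma called 6 with the replicate block, 1 with ribosomal centring, 4 and 3 with replicates 2 and 3 alone without and with the block, and 16 with array weights that did not fully converge (15 lower, where 11.4% of all tested genes were). Settings chosen after seeing the data, all with the replicate block, called 8 with quantile normalization and 12 with ribosomal centring. The setting without a filter called 0 (smallest adjusted p = 0.20, 15 of 75 with an unadjusted p under 0.05). Both normalizations kept all 6 calls of the paired fit. Ribosomal genes were slightly higher in tumour (median 0.06), so centring on them moved every difference down, the member median from -0.14 to -0.19. More lower calls are therefore partly built into that setting. Each of the 6 fits without 1 array called 0 (2 to 6 with an unadjusted p under 0.05). Leaving out a pair from the block, also added after seeing the data, gave 2 without replicate 2, COX7C and ATPsynepsilonL, and 0 without replicate 3. Over all tested probe sets the unpaired count of 41 became 730 with the replicate block, 2 without a filter, 210 with quantile normalization, 178 with ribosomal centring, 550 and 515 with replicates 2 and 3 alone, 1666 with array weights, and 1047, 765 and 0 in the 3 added block settings; leaving out 1 array gave 0 to 19, and leaving out a pair from the block 484 without replicate 2 and 0 without replicate 3. With ribosomal centring 47 of the 178 were higher, against 16 of the 41.

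The median over tested members kept its sign in every setting run and ran from -0.20 to -0.049 with an array or pair left out, nearest zero without tumour replicate 1, where the median of all tested probe sets was 0.15. That of complex V ran from -0.21 to 0.011, the latter without tumour replicate 1; that of complex II ran from -0.30 to -0.18. Complex IV ran from -0.27 to -0.20, and was -0.20 with quantile normalization, -0.27 with ribosomal centring, -0.21 with replicates 2 and 3 alone, and -0.17 with the mean of all probe sets, where COX7B and COX7C include probe sets at the floor. With ribosomal centring complex II was -0.27. Of 341 values of the 19 genes named by rule 311 kept their direction and call, 28 were called where the unpaired fit did not, and 2 changed sign: UQCR-11 ran from -0.10 to 0.46 and ATPsyngamma from -0.10 to 0.0010 with arrays left out.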
